A study of Oryctolagus cuniculus with 4 samples.

Results

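A block of 8 neighbouring genes on rabbit chromosome 2 carried few reads in tendon stem/progenitor cells grown without platelet-rich plasma (PRP) and many reads in cells grown with it. The 8 genes are part of 29587 listed genes. They were chosen by position and by a minimum count. The interval is 443 kb of the OryCun2.0 assembly, between about 97.560 and 98.004 Mb, and a gene inside it had to reach 10 counts in at least 1 library. The interval itself was selected on the comparison described here, by joining neighbouring genes that passed the test for a higher level with PRP. Genes lying between them that did not pass stayed inside the interval. Differences between the groups within the block are therefore given as a description.

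RNA came from cultured cells of New Zealand White rabbits, labelled as tendon stem/progenitor cells, the dividing cells of tendon that can form new tendon cells. The noPRP group (2 libraries) was grown in medium to which no PRP was added, and the PRP group (2 libraries) in medium holding 10% PRP by volume. Everything else in the labels is shared by both groups. Separate animals or cultures are not stated in the labels, so any p-value measures only the spread between these libraries, which may be technical. Fewer cells expressing a gene and less RNA per cell cannot be told apart in such bulk RNA.

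PRP is plasma enriched in platelets, the blood cell fragments whose granules hold growth factors and other signalling proteins and release them on activation. Neighbouring genes in animal genomes often arose by duplication, and members of such families can share regulatory DNA. Other neighbours lie together with no common origin. Which case holds for this block was not tested, because the files give Ensembl identifiers and exon positions with neither symbols nor sequence.

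No gene of the block is named here. The RefSeq gene table, built on another rabbit assembly (mOryCun1.1), matched 0 of the 29587 identifiers. Of 9 interleukin-1 family genes looked up there by symbol, 8 were found, all on chromosome 2 among other genes, and IL36B was not found. The 8 were IL1A, IL37, IL1B, IL36G, IL36A, IL36RN, IL1F10 and IL1RN. These are secreted signalling proteins and antagonists of inflammation. The chromosome number is the only point that was compared between the sources, and it is the same. Gene order along the chromosome was not compared. No identifier links the block to these genes, and positions were not carried between assemblies, so whether the block is that family was not determined. For the same reason the labelled cell type was not checked against marker genes.

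The genes are called A to H in order along the chromosome. Gene A (ENSOCUG00000008771) spans 9880 bases and ends at position 97570279, with 9 merged exons (2253 exonic bases). Gene B, at 97614349 to 97618581, has 5 exons (1207 bases), and gene C, at 97678972 to 97694272, has 8 (1337 bases). Gene D, at 97749441 to 97755469, has 5 exons (1708 bases), and gene E, at 97773575 to 97775822, has 6 exons in only 471 bases. Gene F (ENSOCUG00000004161), at 97865546 to 97881097, has 5 exons (1710 bases). Gene G, at 97897984 to 97932216, has 17 exons (3490 bases). Gene H starts at 97946131, spans 57621 bases and has 12 exons (2546 bases).

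The arrangement changes strand inside the block. Genes A, B and H lie on the minus strand and the 5 genes C to G on the plus strand. No listed genes in the block overlap, and the gaps between them run from 13914 to 60390 bases, so reads were not dropped there for touching more than 1 gene. Reads with several alignments were dropped, which would lower the counts of any near-identical copies.

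The threshold of 10 counts separated gene C from the remaining listed gene of the interval. Gene C reached 14 counts in its highest library. The gene left out, at 97808565 to 97827174 between E and F, had no count without PRP and 8 and 1 counts in PRP replicates 1 and 2. It shows the same side of the comparison as the members at a depth too low to describe.

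Library totals ran from 20100175 to 24064713 counts, and levels below are in CPM, the count relative to the library's size after TMM scaling (trimmed mean of M values). Together the 8 genes held 499 and 617 counts in noPRP replicates 1 and 2, and 46345 and 20350 in PRP replicates 1 and 2. As a share of each library this was 0.00248% (95% Wilson interval 0.00227 to 0.00271) and 0.00295% (0.00272 to 0.00319) without PRP. With PRP it was 0.193% (0.191 to 0.194) and 0.0854% (0.0842 to 0.0866). The summed level was 24.9 ± 3.1 CPM without PRP and 1471 ± 646 CPM with PRP (SD, n = 2 each). The groups were far apart, while PRP replicate 1 stood at 1928 CPM and PRP replicate 2 at 1015 CPM.

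**Figure D1:**
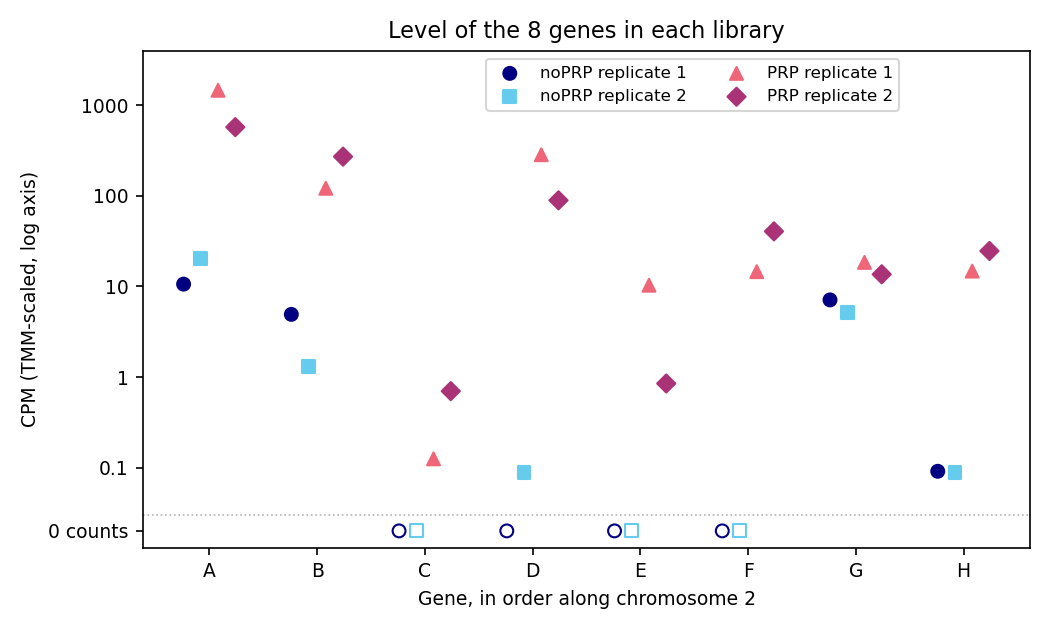
CPM of genes A to H (log axis) in the 2 noPRP and 2 PRP libraries, 1 point per library, with open symbols on the bottom line for 0 counts. For each of the 8 genes both PRP points lie above both noPRP points; genes C, E and F are at 0 counts in both noPRP libraries.

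Of the 8 members, 7 had enough counts to be tested, and 6 of these (all but G) passed at an adjusted p under 0.05 as higher with PRP (edgeR quasi-likelihood test, Benjamini-Hochberg over 12707 genes). Over all tested genes 0.535% were called in that direction, and since these calls delimited the block nothing is read from the contrast. Both PRP libraries were above both noPRP libraries in 8 of 8 members, against 23.8% of all tested genes. This too was nearly fixed by the selection, and nothing is read from it. Genes C, D, E, F and H had at most 2 counts in any noPRP library and met the minimum of 10 only through PRP libraries. The 8 also include gene C, which was not tested. Gene A missed 5% with a replicate block (edgeR adjusted p = 0.0509) and gene E with upper-quartile normalization (0.0654), which left 5 called members in each case. The median log2 fold change of the 7 tested members was 7.69, and that of all tested genes was 0.035.

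Gene A carried most of the counts. Without PRP its counts were 233 and 465, and with PRP 35192 and 11510, which is 10.6 and 20.5 CPM against 1464 and 574 CPM. The lower PRP library was 28.1-fold above the higher noPRP library. The fitted log2 fold change was 6.04 (SE 1.01), and 5.21 without PRP replicate 1. Per kilobase of exon, the level of gene A ranked 7158 and 5473 among the 29587 listed genes without PRP, and 115 and 478 with PRP.

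Gene A was the most counted member in all 4 libraries, but its share of the block was not constant. In noPRP replicates 1 and 2 its part of the block was 46.7% (95% Wilson interval 42.4 to 51.1) and 75.4% (71.8 to 78.6). In PRP replicates 1 and 2 it held 75.9% (75.5 to 76.3) and 56.6% (55.9 to 57.2). The ranges of the groups overlapped, so the share of gene A did not separate PRP from noPRP. Without gene A the remaining 7 genes summed to 9.4 ± 3.8 CPM without PRP and 452 ± 16 CPM with PRP (SD, n = 2 each). The near equality of the PRP libraries in that sum hides opposite differences of single genes, described below.

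**Figure D2:**
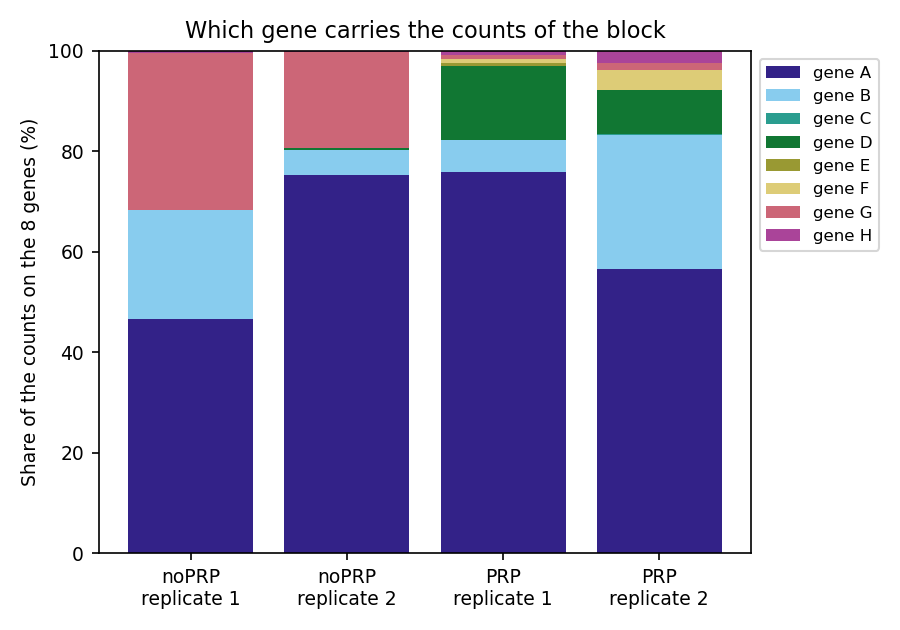
Share of the counts on the 8 genes taken by each gene (stacked bars, percent) in each library. Gene A is the largest part in all 4 libraries; gene G is the next part in both noPRP libraries, gene D in PRP replicate 1 and gene B in PRP replicate 2.

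The runner-up depended on the library. Gene G was next in both noPRP libraries, with 31.3% and 19.1% of the block's counts. In the PRP libraries it held 0.956% and 1.34% of them. Gene D was next in PRP replicate 1 with 14.8%, and gene B in PRP replicate 2 with 26.7%. These are shares of a total that itself differed many-fold, so the smaller share of gene G is no decrease in its level.

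Gene B was detected without PRP and abundant with it. Without PRP it reached 108 and 30 counts, and with PRP 2914 and 5439, or 4.91 and 1.32 CPM against 121 and 271 CPM. Its noPRP libraries differed 3.72-fold and its PRP libraries 2.24-fold, with the higher PRP value in replicate 2. The lower PRP library was 24.7-fold above the higher noPRP library, and the fitted log2 fold change was 5.97 (SE 1.04). It was 7.22 without noPRP replicate 1, 5.30 without noPRP replicate 2 and 5.30 without PRP replicate 2.

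The genes fell into 3 classes by their counts without PRP. Genes A, B and G had at least 30 counts in each noPRP library, genes D and H had at most 2, and genes C, E and F had 0 in both. A count of 0 allows up to 3 counts, or 0.137 CPM in noPRP replicate 1 and 0.132 CPM in replicate 2, from counting error alone. Low counts were in part read ends of 1 fragment counted singly: in noPRP replicate 1, 1042 genes had exactly 2 counts and 634 had 1. The 2 counts of a gene may thus be a single molecule. Floors and intervals that treat each count as an independent event are then too favourable. Values on fragments, with counts halved, are given beside the all-library values of genes C, D, E and F. Values with a library left out, and all Wilson intervals, are on counts only.

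Gene D was nearly silent without PRP and among the 3 most counted members with it. Without PRP it had 0 and 2 counts, and with PRP 6840 and 1790, the latter being 285 and 89.3 CPM. Pooled over libraries, the PRP level was 4374-fold the noPRP level, with a counting interval of 1211 to 36127 on counts and 785 to 172819 on fragments. Without PRP replicate 1 this ratio was 1995 (551 to 16487), and without noPRP replicate 1 it was 2224 (615 to 18367). Without PRP replicate 2 it was 6359 (1760 to 52519), and without noPRP replicate 2, where the noPRP count is 0, the level was at least 1434-fold higher. Its PRP libraries differed 3.19-fold, with the higher value in replicate 1, as for gene A.

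Gene H, the gene at the upper edge, had 2 counts in each noPRP library and 355 and 494 in the PRP libraries. In CPM these were 0.091 and 0.088 against 14.8 and 24.6. The fitted log2 fold change was 7.69 (SE 1.16), and the PRP libraries differed 1.67-fold, with replicate 2 higher.

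Gene F, silent without PRP, had 350 and 813 counts with PRP, or 14.6 and 40.5 CPM. With a floor of 3 counts summed over noPRP, its level was at least 393-fold higher with PRP, and at least 197-fold with a floor of 3 fragments, or 6 counts. The bound was 217 without PRP replicate 2 and 604 without PRP replicate 1. Leaving out noPRP replicate 1 or 2 moved it to 200 and 193, through the floor alone.

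Gene E rested mainly on 1 library. It was silent without PRP and had 248 counts in PRP replicate 1 and 17 in replicate 2, a 12.2-fold difference in CPM between the PRP libraries. The level was at least 89.5-fold higher with PRP over both libraries (44.8-fold with the floor in fragments), but at least 12.6-fold higher without PRP replicate 1 and at least 154-fold without PRP replicate 2. Leaving out noPRP replicate 1 or 2, which moves the floor, gave 45.5 and 44.0. Without PRP replicate 1 gene E no longer passed the test (edgeR adjusted p = 0.133), and 5 members were called in place of 6. Gene E also has the shortest exonic length of the block, so per kilobase it reached 21.9 CPM in PRP replicate 1.

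Gene C stayed at the edge of detection. It had 0 counts in noPRP, 3 in PRP replicate 1 and 14 in PRP replicate 2, and it was not tested at this depth. Against the same floor it was at least 5.74-fold higher with PRP (2.87-fold with the floor in fragments), and at least 1.86-fold without PRP replicate 2, where 3 counts remained. Without PRP replicate 1 the bound was 10.4, and without noPRP replicate 1 or 2, through the floor, 2.92 and 2.82. PRP replicate 2, the source of most counts of gene C, had 17499 genes with a count, against 15796 to 15981 in the other libraries. Whether the low counts of gene C go with PRP or with that library was not tested.

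Gene G had the smallest fold of the 7 tested members. Without PRP it had 156 and 118 counts, and with PRP 443 and 273, or 7.10 and 5.19 CPM against 18.4 and 13.6 CPM. The groups did not overlap, but the lower PRP library was only 1.92-fold above the higher noPRP library. The log2 fold change of 1.38 (SE 0.83) did not pass the test. Gene G lies between genes F and H, both of which had at most 2 counts in any noPRP library.

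Corrected for exon length, the order of the genes depended on the PRP library. In PRP replicate 1 the levels per kilobase of exon were 650 CPM for A, 167 for D, 100 for B and 21.9 for E. In PRP replicate 2 they were 255 for A, 225 for B, 52.3 for D and 23.7 for F. Genes F, H and G followed E in replicate 1 at 8.51, 5.80 and 5.28 CPM, and genes H, G and E followed F in replicate 2 at 9.68, 3.90 and 1.80 CPM. Gene C was last in both libraries. On group means, gene A stood at 452 ± 279 CPM per kilobase, gene B at 163 ± 88 and gene D at 109 ± 81 (SD, n = 2). Genes B and D swapped order between the PRP libraries. Gene F (16.1 ± 11) was above gene H (7.74 ± 2.7) in both libraries. Gene E (11.9 ± 14) was above both of these in replicate 1 and below both in replicate 2. With n = 2 these SDs cannot decide whether the genes differ in level.

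The PRP libraries disagreed in both directions within the block. Genes A, D, E and G were higher in PRP replicate 1, and genes B, C, F and H in PRP replicate 2. On the log2 scale, replicate 1 minus replicate 2 was 1.35 for A, 1.67 for D, 3.61 for E and 0.44 for G. It was −1.16 for B, −2.48 for C, −1.48 for F and −0.74 for H. Among 12520 tested genes with a count in both PRP libraries, 5th and 95th percentiles were −1.78 and 2.60. Gene E lay above and gene C, with 3 and 14 counts, below that range, and the other 6 members lay within it. Direct neighbours such as A and B thus differed in opposite directions, but for most members by no more than is usual among all tested genes. Opposite signs are therefore not particular to the block. In noPRP replicates 1 and 2 gene A stood at 10.6 and 20.5 CPM and gene B at 4.91 and 1.32 CPM, each the reverse of its PRP order. Over all tested genes same-numbered libraries also deviated in opposite directions (r = −0.66). Whether these are related was not tested.

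**Figure D3:**
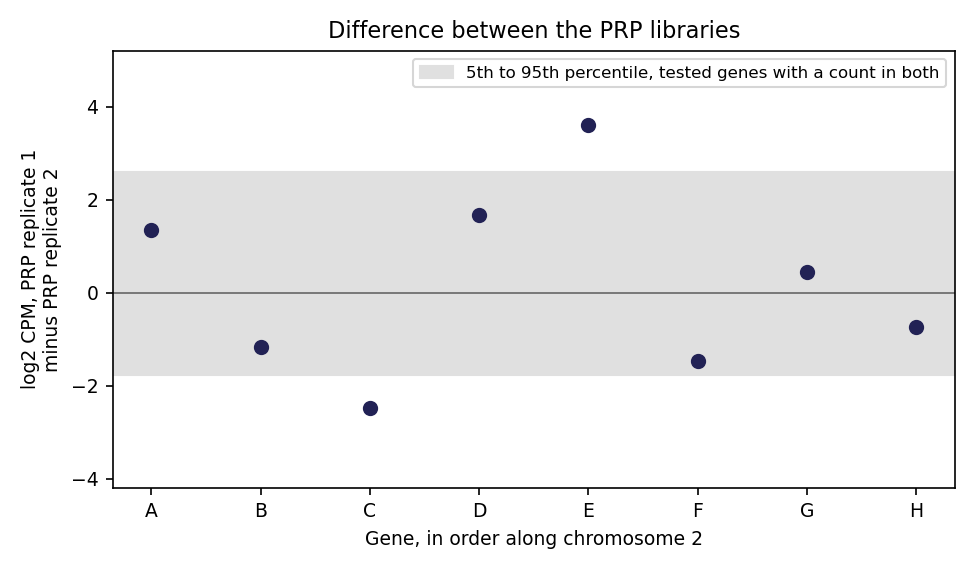
Difference in log2 CPM between PRP replicate 1 and PRP replicate 2 for genes A to H (points), with the 5th to 95th percentile of tested genes with a count in both libraries as a grey band. Genes A, D, E and G lie above 0 and genes B, C, F and H below; E and C fall outside the band.

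On the side of gene A the next gene already lacked the difference. This gene, 9670 bases away at 97520244 to 97550729 and also on the minus strand, had 48 and 68 counts without PRP and 23 and 50 with it. The log2 fold change of this gene was −0.59 (SE 0.93), with an edgeR adjusted p = 0.773. The next, at 97504025 to 97511662, had 0 counts without PRP, 1 and 9 with PRP, and was not tested. Like the listed gene left out of the block, it had counts only with PRP, at a depth too low to describe. Most of its counts came from PRP replicate 2, which had 17499 genes with a count, against 15796 to 15981 in the other libraries. Whether they go with PRP or with that library was not tested. Then, 107 kb from the block at 97440043 to 97453690, came the most counted gene of this flank, with 2852 and 6437 counts without PRP and 3451 and 2343 with it. Here the log2 fold change was −0.67 (SE 0.77), with an edgeR adjusted p = 0.69.

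Within 500 kb on that side 11 genes were listed and 9 tested. With edgeR 0 of the 9 were called in either direction (0.858% of all tested genes were) and 0 had an unadjusted p under 0.05. DESeq2 and limma-voom also called 0. Their log2 fold changes ran from −1.75 to 0.90 with a median of −0.50, with 2 positive and 7 negative. The limit of 500 kb without a gene rising with PRP was fixed by the way neighbours were joined into the block. The same choice bounds the fold changes in this flank, and only the absence of falling calls is a further observation. The highest of these log2 fold changes, 0.90 (SE 0.85) for the gene at 97388141 to 97393554, was below that of gene G.

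The summed level of this flank is given as a description. Without PRP it was 237 and 485 CPM, and with PRP 330 and 198 CPM, so the groups overlapped. A flank without rising genes was fixed by the joining, so nothing is read from the contrast with the block. The gene at 97440043 to 97453690 alone held 130 and 283 CPM of the sum without PRP, and 144 and 117 CPM with PRP. The gene at 97078434 to 97124088 differed 11.8-fold between the PRP libraries, at 91.5 and 7.73 CPM, nearly as much as gene E. Without PRP it stood at 24.0 and 79.1 CPM.

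On the side of gene H the block gave way to genes with almost no reads. The nearest, 60135 bases away at 98063887 to 98099488, had 2 counts in PRP replicate 2 and 0 elsewhere. Of 13 genes listed within 500 kb, 5 had any count and the highest was 2. Their summed counts were 0 and 0 in noPRP and 1 and 9 in PRP, and 0 of the 13 could be tested. Most of these counts came from PRP replicate 2, the library with the most genes with a count. Whether they go with PRP or with that library was not tested. Dropping of reads with several alignments would also leave near-identical genes at 0, which these files cannot show. Out to 1000 kb on that side 1 gene was tested, at 98961851 to 98993640, with 17 and 59 counts without PRP and 57 and 27 with it.

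**Figure D4:**
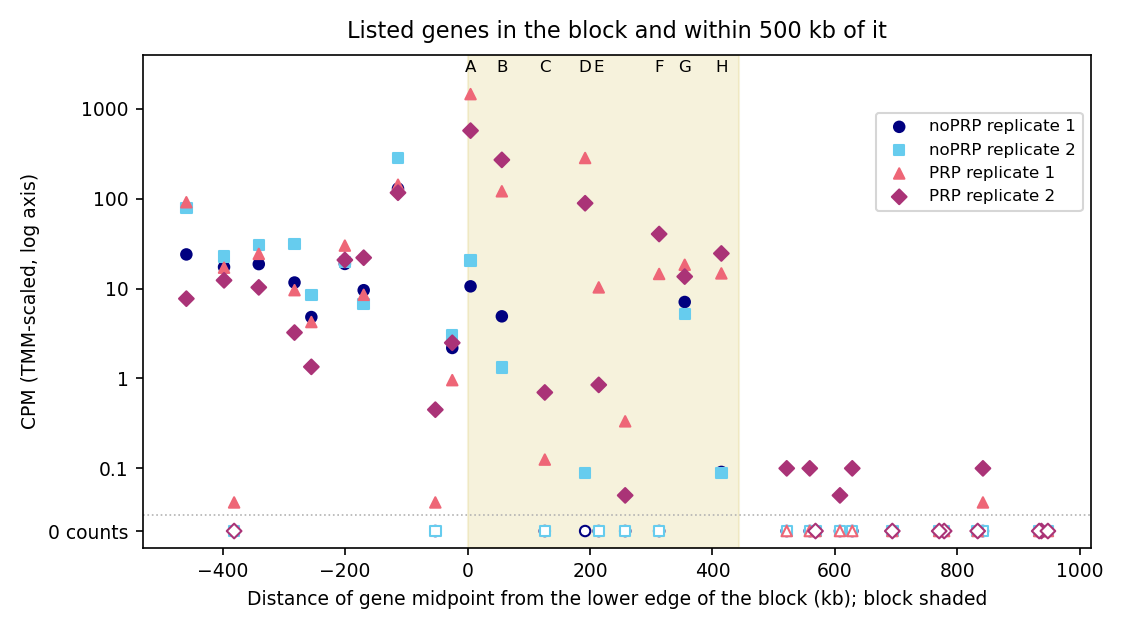
CPM (log axis) of every listed gene in the block (shaded, members lettered) and within 500 kb on either side, by the distance of its midpoint from the lower edge in kb, 1 point per library, open symbols for 0 counts. PRP points stand above noPRP points inside the block; the groups mix to its left, and to its right no gene has more than 2 counts.

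Some genes elsewhere lay closer to gene A in their levels than the other members of the block did. Likeness was the Euclidean distance of log2(CPM + 0.5) over the 4 libraries, where a small value means similar levels throughout. The nearest genes outside the region lay on chromosome 5 at 27498985 to 27502985 (distance 1.38), on chromosome 15 at 76286920 to 76287475 (1.85) and on chromosome 13 at 29880657 to 30048906 (1.87). The chromosome 5 gene had 280 and 319 counts without PRP and 48786 and 25592 with it. The chromosome 15 gene had 335 and 796 against 95097 and 19053, and the chromosome 13 gene 121 and 742 against 12846 and 8781. Among the members, gene B was nearest to gene A at 5.25 and gene C farthest at 15.9. The genes elsewhere were picked as the nearest of all tested genes outside the region, while the members to compare were few. That the picked genes lay nearer than any member was thus nearly fixed by the choice, and nothing is read from it. With 4 libraries this measure reflects the level as much as the pattern.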

How the data were processed

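The authors deposited a table of raw counts of reads on each gene for every library. According to the submitters' processing notes, reads were aligned with STAR 2.7.2a to OryCun2.0 and counted with featureCounts 1.6.5. Per the file headers, exons of Ensembl release 98 were summed per gene with no option for strand, pairs, multiple alignments or overlaps, so the program's defaults applied. The series table was not used here. Members are genes on chromosome 2 between 97560400 and 98003751 with 10 or more counts in a library. The members, lists and tests were chosen with earlier results of these data known.

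edgeR 4.0.16 in R 4.3.3 was fitted to all 4 libraries (filterByExpr, 12707 genes; TMM factors 0.842 to 1.09; glmQLFTest; no term but the group), with Benjamini-Hochberg adjustment across all genes tested. Standard errors come from the F statistic. Exons are merged annotated exons. Folds against 0 use a floor of 3 counts summed over the group; intervals and floors cover counting error only. Alternatives were other normalizations and filters, DESeq2 1.42.0, limma-voom (limma 3.58.1), a replicate block and each library left out. The fit was tested on simulated data. Named genes are all members, flanking genes nearest the block, called or with 100 or more counts (most given by range), and the 3 genes most like the most counted member.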

Additional observations from a re-analysis of the deposited data

How the results depend on the processing

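The 7 tested members kept a positive fold change in each alternative in which they were tested. Their groups do not overlap, so this was nearly fixed and is no support. The number called, 6, was 5 with upper-quartile normalization (gene E lost, edgeR adjusted p = 0.0654), 5 with the stricter filter (gene E not tested) and 5 or 6 with a library left out. With the replicate block it was 5, gene A having an adjusted p of 0.0509, and flanking calls stayed at 0. The sources do not say that the replicate numbers pair libraries. Same-numbered libraries deviated in opposite directions (r = −0.66 across 12707 genes), and a crossed block, chosen after seeing the data, called 6 members and 1 flanking gene. A floor in fragments, also added after seeing the data, lowered the bounds of genes C, E and F to 2.87, 44.8 and 197. Allowing 2 counts per noPRP library raised the silent members from 3 to 5. Per kilobase of exon, gene A held 67.8% and 44.6% of the block in PRP replicates 1 and 2. The difference in the block's mean log2 level was 5.82, and 5.35 to 6.28 with a library left out. The causes of these shifts were not tested. Gene C could not be tested at its depth.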
